A study of Homo sapiens with 8 samples.

Results

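The genes described here are the nuclear genes for subunits of the 5 complexes of mitochondrial oxidative phosphorylation, compared between H2122 tumours with and without a SMARCA4 knockout. They were chosen by symbol alone: the NDUFA, NDUFAB, NDUFB, NDUFC, NDUFS and NDUFV genes of complex I, SDHA to SDHD of complex II, CYC1 and the UQCR genes of complex III, the COX4 to COX8 genes of complex IV, and the ATP5 genes of complex V. The choice gave 81 of the 59050 gene symbols counted, of which 38 belong to complex I, 4 to complex II, 9 to complex III, 15 to complex IV and 15 to complex V. They lie on 22 chromosomes. Of the 81, 78 had enough reads to be tested, among 16219 genes in all.

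The material was 8 xenografts of H2122 cells, a human line long established from a lung cancer, and RNA read counts per gene were deposited for each. The parental group holds 4 tumours that the labels give as wild type, and the knockout group 4 tumours of the same line with SMARCA4, the gene for a catalytic subunit of the SWI/SNF chromatin remodelling complex, knocked out. All 8 had received vehicle and no other agent is named, so no treatment effect is described. The labels number the tumours in each group without saying whether each came from a separate animal, and whether the knockout cells were a clone or a pool is not given in the sources used here; p-values therefore measure the spread between these tumours only.

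The respiratory chain passes electrons from NADH through complex I, or from succinate through complex II, to ubiquinone, then through complex III and cytochrome c to complex IV, which reduces oxygen. Complexes I, III and IV pump protons across the inner mitochondrial membrane, and complex V, the ATP synthase, uses their return to make ATP. Complex II is encoded entirely in the nucleus, whereas the other complexes also hold subunits encoded by mitochondrial DNA, so nuclear and mitochondrial transcripts must both be made. Nuclear respiratory factor 1 (NRF1), ETS-family factors such as GABPA, and YY1 are known to bind promoters of such nuclear genes, and PPARGC1A is a coactivator of mitochondrial biogenesis.

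The promoters show how unevenly these regulatory letters are spread over the genes. RefSeq promoter windows on GRCh38.p14, from 250 bases before to 50 bases after the annotated start, were at hand for 65 of the 81 genes. The NRF1 letters (GCGC, then A and any base, then GCGC again), searched like the others on both strands, occurred in 15 of the 65 (23.1%), against 6.28% of 27305 promoters of all genes. The ETS letters CCGGAAG occurred in 19 (29.2%), against 10.7% of all promoters. The YY1 letters (AAN, ATGG and CGGC without a gap) occurred in 9 (13.8%), against 1.55% of all. Over the whole window, at least 1 of the 3 motifs was present in 34 (52.3%), against 16.7% of all. The motifs were counted without regard to overlap between them. A match of letters is no evidence of binding.

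For 3 of these genes the part of the upstream window outside the annotated gene is shown, 5′ to 3′ on the gene's strand, with motif letters in capitals. ATP5PD, a gene that rose in the knockout tumours, has an ETS match (chr17:75046986-75047219, minus strand). NDUFB4 (chr3:120596086-120596308, plus strand) and SDHA (chr5:218070-218240, plus strand) have NRF1 matches and were not called changed. In SDHA the NRF1 letters occur 4 times at an exact spacing of 49 bases, the first bases lying 166, 117, 68 and 19 bases before the RefSeq start, and the stretch shown holds the pair farthest from it.
ATP5PD: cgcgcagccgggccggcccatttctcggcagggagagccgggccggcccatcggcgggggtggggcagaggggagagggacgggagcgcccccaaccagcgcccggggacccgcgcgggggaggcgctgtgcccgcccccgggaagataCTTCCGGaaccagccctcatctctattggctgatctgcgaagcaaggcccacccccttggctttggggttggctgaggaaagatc
NDUFB4: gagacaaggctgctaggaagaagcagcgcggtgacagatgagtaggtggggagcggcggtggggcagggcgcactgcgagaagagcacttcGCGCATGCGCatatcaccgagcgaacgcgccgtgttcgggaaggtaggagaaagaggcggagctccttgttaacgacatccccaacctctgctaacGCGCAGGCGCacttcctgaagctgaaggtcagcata
SDHA: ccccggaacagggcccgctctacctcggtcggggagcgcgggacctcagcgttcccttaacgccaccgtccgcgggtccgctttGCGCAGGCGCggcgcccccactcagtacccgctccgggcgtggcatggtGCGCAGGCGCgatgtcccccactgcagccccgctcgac

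Gene counts totalled 19785922 to 23191698 per parental tumour and 20662882 to 21981123 per knockout tumour. SMARCA4 stood at 198 to 235 CPM (the count relative to the size of its library, scaled between libraries by TMM) in parental tumours and at 22.3 to 31.1 CPM in knockout tumours, a log2 fold change of -3.02 (SE 0.117), so each label matched its tumour. Of the defining lung markers NKX2-1, SFTPB and NAPSA, the first had 0 counts in all 8 tumours and the others at most 26 counts in any tumour, while the epithelial genes EPCAM, KRT8 and KRT18 were abundant. Of the 8 epithelial markers tested, KRT7, KRT19 and CLDN4 fell in knockout tumours, and the summed list stood at 6215 to 7315 CPM in parental and 4826 to 6476 CPM in knockout tumours; the part of this shift in the results was not tested. Summed leukocyte markers ranged from 7.53 to 74.0 CPM in parental and from 13.1 to 31.0 CPM in knockout tumours. Summed fibroblast markers, mostly COL1A1, ranged from 179 to 607 CPM and from 343 to 603 CPM. Of the 4 fibroblast markers tested, only LUM was called. It stood at 0.104 to 0.638 CPM in parental and at 10.1 to 15.5 CPM in knockout tumours. No pair of libraries was a duplicate.

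Knockout tumours differed from parental tumours in a minority of the respiratory genes, always upwards, with each estimate in the reported fit under 2-fold. A gene is called changed when its adjusted p in edgeR's quasi-likelihood test, with Benjamini-Hochberg adjustment over all genes tested, was under 0.05. Of the 78 genes tested, 7 rose and 0 fell (8.97% called), against 27.0% of all genes tested, of which 13.0% rose and 14.1% fell. An unadjusted p under 0.05 was reached by 17 of the 78 (21.8%), each with an estimate above 0, against 38.0% of all genes. DESeq2 called 8 genes and limma-voom 7, again all higher. The 7 are NDUFV2, NDUFB1 and NDUFA6 of complex I, UQCRB of complex III, COX6B2 of complex IV, and ATP5MG and ATP5PD of complex V. The median log2 fold change, knockout minus parental, was 0.08 over the 78, beside 0.0035 over all genes; 58 estimates lay above 0 and 20 below, and 54 lay within 0.2 of 0. The number above 0 was 51 to 63 across the scalings tried and 45 to 68 when single tumours were left out. In bulk tumours, fewer cells of a type and less RNA per cell cannot be told apart.

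**Figure D1:**
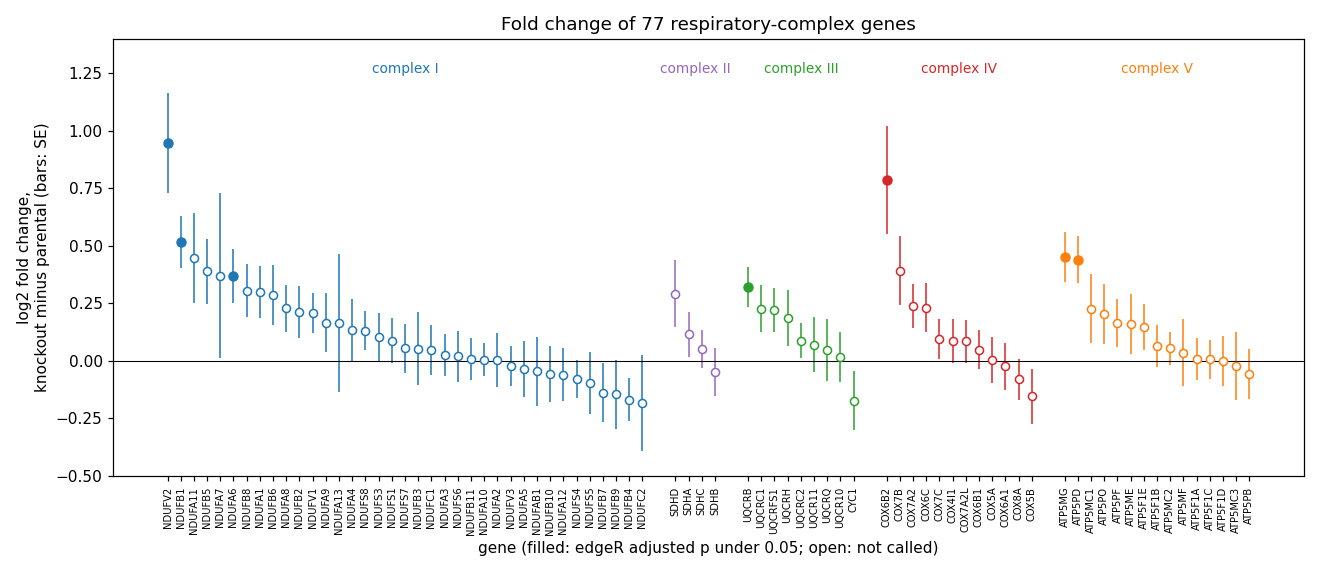
Log2 fold change, knockout minus parental, of 77 of the 78 genes tested (points, with bars of 1 standard error), ordered within each complex; filled points have an edgeR adjusted p under 0.05. The 7 filled points all lie above 0, and no point reaches 1 in either direction.

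The groups differed without overlap in 8 of the 78 genes, all with the 4 knockout values above the 4 parental values; over all genes tested this held for 29.3%, with 14.0% higher and 15.3% lower. Of these 8, 6 are called genes, NDUFA6 being the called gene whose groups overlapped. The others are NDUFB8 and the core subunit NDUFV1, whose adjusted p values were 0.0714 and 0.101. The standard error of the log2 fold change had a median of 0.109 over the 78 genes.

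Complex I, the NADH dehydrogenase, had 3 of its 38 genes called (7.89%, against 27.0% of all genes tested). Its median log2 fold change was 0.05. These 38, and the accessory and NDUFA counts that follow, are set by symbol and include NDUFA4, now regarded as a subunit of complex IV. The 7 core subunits, which carry the flavin and iron-sulphur clusters, had 1 called gene (14.3%), NDUFV2, and a median of 0.10. The 31 accessory subunits had 2 (6.45%), NDUFB1 and NDUFA6, and a median of 0.03. Among accessory genes, the 14 NDUFA genes had a median of 0.15 with 1 called (7.14%), and the 11 NDUFB genes 0.05 with 1 called (9.09%).

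NDUFV2 encodes an iron-sulphur subunit of the NADH-oxidising module and lies at chr18:9102630-9134345 on GRCh38. It stood at 1.81, 2.05, 2.19 and 1.32 CPM in parental tumours 1 to 4 and at 3.64, 3.46, 2.80 and 4.29 CPM in knockout tumours 1 to 4. All knockout values lay above all parental values, and the log2 fold change was 0.95 (SE 0.218, with an adjusted p of 0.00789 by edgeR), the largest of the 78. Its reads were few, 458 over all 8 libraries, and its estimate was 0.81 to 1.05 when single tumours were left out.

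NDUFB1, a small accessory subunit of the membrane arm at chr14:92116122-92121917, stood at 30.3, 28.6, 29.5 and 36.6 CPM in parental tumours and at 42.4, 41.9, 41.6 and 53.1 CPM in knockout tumours. Tumour 4 was the highest of each group, and the groups did not overlap. Its log2 fold change was 0.52 (SE 0.114, with an adjusted p of 0.00590 by edgeR). NDUFA6, an accessory subunit of the LYR protein family at chr22:42085525-42090955, stood at 36.2, 31.9, 33.3 and 43.4 CPM in parental and 46.3, 41.1, 47.0 and 52.8 CPM in knockout tumours. Parental tumour 4 was above knockout tumour 2, and the log2 fold change was 0.37 (SE 0.116, with an adjusted p of 0.0349 by edgeR). NDUFA6 lost its call when any 1 of 6 single tumours was left out, with adjusted p values over all such fits of 0.00747 to 0.0859.

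None of the other core subunits of complex I was called by edgeR. The log2 fold changes were 0.21 for NDUFV1 (SE 0.0864), 0.13 for NDUFS8 (SE 0.0849), 0.10 for NDUFS3 (SE 0.106), 0.09 for NDUFS1 (SE 0.0981) and 0.06 for NDUFS7 (SE 0.106). NDUFV1, which binds NADH and the flavin beside NDUFV2, stood at 191, 176, 181 and 168 CPM in parental and at 193, 196, 205 and 232 CPM in knockout tumours. Its groups did not overlap, but parental tumour 1 and knockout tumour 1 nearly met. The lowest estimate in complex I was that of NDUFC2, -0.18 (SE 0.210), and NDUFB4, whose promoter is shown above, had -0.17 (SE 0.0926, edgeR adjusted p = 0.211).

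Complex II oxidises succinate and is at the same time an enzyme of the citrate cycle. None of its 4 genes was called by edgeR, against 27.0% of all genes tested, and none reached an unadjusted p under 0.05. SDHD, a membrane anchor, had the largest estimate, 0.29 (SE 0.145, adjusted p = 0.163). It stood at 67.5, 46.3, 46.8 and 72.9 CPM in parental tumours and at 71.3, 75.6, 70.4 and 68.8 CPM in knockout tumours, so that parental tumours 2 and 3 were low and parental tumours 1 and 4 lay in or near the knockout range. The flavoprotein gene SDHA had 0.12 (SE 0.0982), the anchor SDHC 0.05 (SE 0.0818) and the iron-sulphur subunit SDHB -0.05 (SE 0.104). The annotation names 3 pseudogenes for SDHA, 4 for SDHC and 3 for SDHD, and, among called genes, 6 for ATP5MG, 4 for ATP5PD, 3 for UQCRB, 2 for NDUFB1 and 1 for NDUFV2. How reads divided between genes and these copies was not tested.

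Complex III, the cytochrome bc1 complex, had 1 of 9 genes called (11.1%, against 27.0% of all genes tested) and a median of 0.09. UQCRB, the subunit that helps form the ubiquinone-binding site, stood at 157, 147, 146 and 171 CPM in parental tumours and at 213, 182, 184 and 197 CPM in knockout tumours. Knockout tumour 1 was the highest, the groups did not overlap, and the log2 fold change was 0.32 (SE 0.0872, with an adjusted p of 0.0179 by edgeR). UQCRB missed the threshold in 2 of the 8 fits that left out 1 tumour, with adjusted p values over those fits of 0.0106 to 0.0630. The core protein UQCRC1 and the Rieske iron-sulphur protein UQCRFS1 had estimates of 0.23 (SE 0.103) and 0.22 (SE 0.0964) and were not called. CYC1, cytochrome c1, had the lowest, -0.17 (SE 0.127).

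Complex IV, cytochrome c oxidase, had 1 of 12 tested genes called (8.33%, against 27.0% of all genes tested) and a median of 0.09. That gene, COX6B2, is an isoform known for its expression in testis and encodes an alternative to the widely expressed COX6B1. COX6B2 stood at 2.80, 3.91, 3.89 and 1.96 CPM in parental tumours and at 6.96, 4.88, 4.71 and 5.09 CPM in knockout tumours. Knockout tumour 1 was well above the rest, the groups did not overlap, and the log2 fold change was 0.79 (SE 0.236, with an adjusted p of 0.0286 by edgeR). It lost its call in 3 of the 8 fits that left out 1 tumour, with adjusted p values of 0.0192 to 0.0935. COX6B1 was not called, at 0.05 (SE 0.0854); per kilobase of annotated exon, COX6B1 stood at 140 CPM and COX6B2 at 1.12 CPM over all 8 tumours.

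The other tissue-restricted isoforms of complex IV were at or near 0. COX4I2 had 0 counts in all 8 tumours, which allows up to 3 counts in each, or 0.128 to 0.155 CPM in parental and 0.140 to 0.146 CPM in knockout tumours. COX6A2 and COX7A1, known as isoforms of heart and skeletal muscle, had 2 counts each over all tumours. For COX6A2 these fell in parental tumour 1 and knockout tumour 2 (exact two-sided permutation p = 1), and for COX7A1 in parental tumours 2 and 4 (exact two-sided permutation p = 0.429). Skeletal muscle markers summed to 50.9 CPM in parental tumour 2 and to 3.90 to 21.3 CPM in the other tumours. The paired, widely expressed genes were measured at depth and not called: COX4I1 had a log2 fold change of 0.09 (SE 0.0944), COX6A1 -0.02 (SE 0.101) and COX7A2 0.24 (SE 0.0954, edgeR adjusted p = 0.0888). COX5B, which binds zinc in the matrix, had the lowest estimate of the complex, -0.15 (SE 0.120).

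Complex V had 2 of 15 genes called (13.3%, against 27.0% of all genes tested) and a median of 0.07. Its 5 genes for the catalytic F1 head, ATP5F1A to ATP5F1E, held no call and had a median of 0.01, with estimates from -0.0005 to 0.15. The 4 genes of the peripheral stalk had a median of 0.18 and 1 call, and the 6 genes of the membrane part 0.11 and 1 call.

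ATP5PD, subunit d of the stalk at chr17:75038863-75046985, stood at 114, 106, 94.8 and 121 CPM in parental tumours and at 143, 133, 147 and 168 CPM in knockout tumours. The groups did not overlap, and the log2 fold change was 0.44 (SE 0.102, with an adjusted p of 0.00811 by edgeR), or 1.36-fold. ATP5MG, subunit g of the membrane part at chr11:118401154-118431496, stood at 23.98, 19.2, 23.3 and 26.7 CPM in parental and at 32.1, 32.0, 29.6 and 33.8 CPM in knockout tumours. Again no parental tumour reached the knockout range, and the log2 fold change was 0.45 (SE 0.108, with an adjusted p of 0.00969 by edgeR). ATP5PD, ATP5MG, NDUFB1 and NDUFV2 kept their calls whichever single tumour was left out. ATP5PB, subunit b of the same stalk, had the lowest estimate of the complex, -0.06 (SE 0.107).

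The proton-conducting c subunit is encoded by 3 genes, ATP5MC1, ATP5MC2 and ATP5MC3, whose mature proteins are identical. None was called, with estimates of 0.23 (SE 0.151), 0.05 (SE 0.0729) and -0.02 (SE 0.149). ATP5MC1 stood at 84.5, 67.3, 64.8 and 93.6 CPM in parental and at 79.2, 82.8, 84.3 and 117 CPM in knockout tumours, with knockout tumour 4 far above the others of its group.

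**Figure D2:**
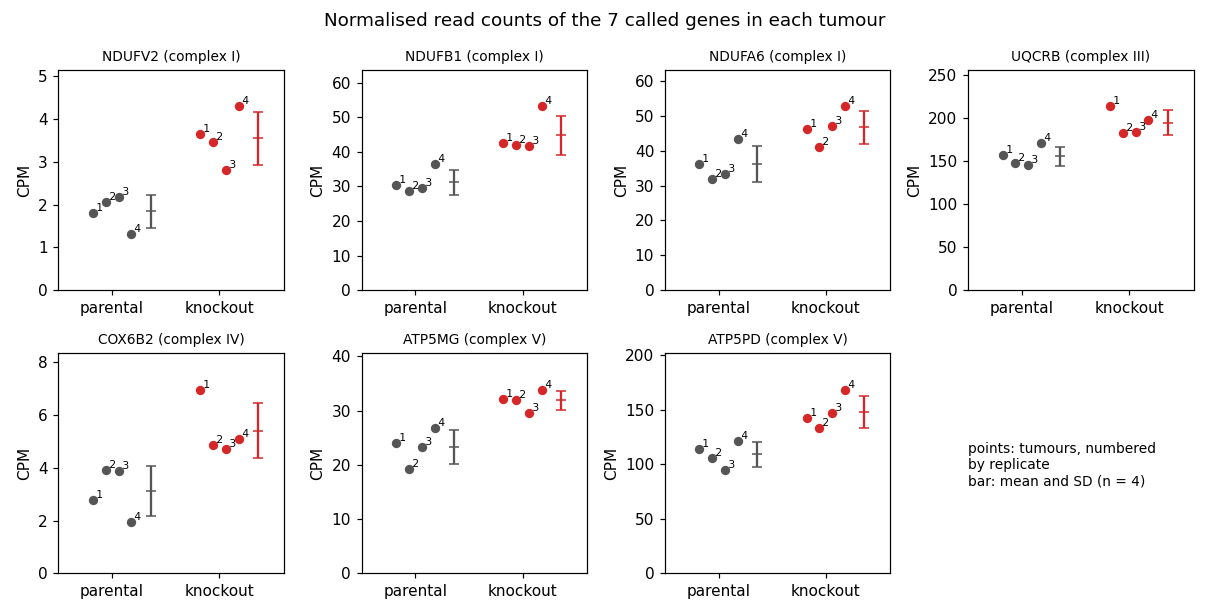
CPM of the 7 called genes in each of the 8 tumours (points, numbered by replicate), with the mean and SD of the 4 tumours of each group. The knockout values lie above every parental value in 6 panels; in the NDUFA6 panel parental tumour 4 (43.4 CPM) lies above knockout tumour 2 (41.1 CPM).

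Levels within each complex, per kilobase of annotated exon, spanned wide ranges although the proteins assemble in fixed ratios. The highest in each complex were NDUFS5 at 166, SDHB at 31.4, UQCRH at 93.3, COX5A at 167 and ATP5F1B, the catalytic beta subunit, at 408 CPM per kilobase. The lowest tested were NDUFA13 at 0.310, SDHA at 2.14, UQCR11 at 4.70, COX6B2 at 1.12 and ATP5MG at 8.16 CPM per kilobase. The medians were 17.4, 17.0, 47.7, 45.4 and 39.7 for complexes I to V. These are means over all 8 tumours, and the exon length counts every annotated transcript.

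The thinly covered genes share sequence with other annotated genes. The 9 tested genes with a mean under 15 CPM (NDUFV2, NDUFA7, NDUFA9, NDUFA11, NDUFA13, NDUFB8, NDUFC2, UQCR11 and COX6B2) all share coding bases with another gene on the same strand in GENCODE 29, by 36.9% to 100% of their coding sequence, with a median of 78.3%. Of the other 69 genes, 6 share any (ATP5MF, ATP5MG, ATP5PO, COX6A1, COX8A and SDHD), by at most 62.6%. The limit of 15 CPM falls between UQCR11 (10.1 CPM, 100% shared) and SDHA (17.9 CPM, 0% shared). A limit above SDHA would therefore not give a group in which all genes share coding bases. Whether counting used strand is not given in the sources used here, and 9 more of the 69 share coding bases with a gene on the other strand alone, among them NDUFS7 (48.5%), NDUFB2 (45.2%), ATP5ME (44.0%) and the called genes ATP5PD (7.89%) and UQCRB (2.78%). NDUFV2 shares 84.7% of its coding bases with AP005263.1, and COX6B2 100% with AC020922.1; both partners had 0 counts in all 8 tumours. ATP5MG shares 56.5% with AP001267.5. Reads set aside as ambiguous between genes made up 3.98% to 4.31% of reads in parental and 4.11% to 4.15% in knockout tumours. The genes in which these reads fell are not given. Whether reads in shared exons of these genes were left out was not tested, since the counting mode is not given in the sources used here. The levels and fold changes of these genes are therefore uncertain. Among the 69 genes of at least 15 CPM, 5 were called and the median log2 fold change was 0.05.

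**Figure D3:**
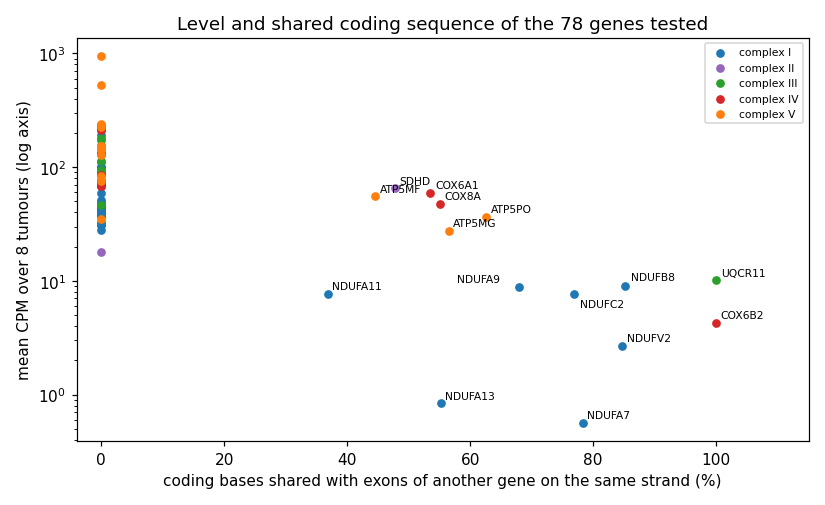
Mean CPM over the 8 tumours (log axis) of each tested gene against the percent of its coding bases that lie in exons of another gene on the same strand, coloured by complex. The 9 genes under 15 CPM all lie to the right of 36%, while most others stand at 0%.

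The respiratory genes varied together between tumours of the same group. Parental tumour 4 was the highest of the 4 parental tumours for 61 of the 78 genes (78.2%), and knockout tumour 4 the highest of its group for 62 (79.5%); over all genes tested these shares were 29.3% and 34.4%. Parental tumour 2 was the lowest of its group for 46 genes (59.0%), against 26.7% of all genes, and knockout tumour 2 the lowest of its group for 36 (46.2%), against 22.7%. Per tumour, the median over the 78 genes of the log2 CPM minus the gene's mean over 8 tumours was -0.03, -0.21, -0.13 and 0.15 in parental tumours 1 to 4 and -0.01, -0.03, 0.04 and 0.19 in knockout tumours 1 to 4. Parental tumour 4 thus lay above knockout tumours 1 to 3, and the group means, -0.05 ± 0.155 (SD, n = 4) and 0.05 ± 0.0996 (SD, n = 4), differed by less than the SD of the parental group. In knockout tumour 4 the 1677 other genes with at most 1500 exon bases were high too. Their median deviation from the group mean was 0.12 there, beside 0.18 for the 22 respiratory genes as short. In parental tumour 4 these medians were -0.07 and 0.24. The part of transcript length was not tested.

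Tumour 4 was the highest of its group in each complex. The medians of parental tumour 4 were 0.12 for complex I, 0.14 for complex II, 0.15 for complex III, 0.15 for complex IV and 0.17 for complex V, in each the highest of the parental group. Knockout tumour 4 stood at 0.22, 0.08, 0.18, 0.19 and 0.23, in each the highest of the knockout group. Other gene lists shared this feature. The medians of parental and knockout tumour 4 were 0.17 and 0.11 for mitochondrial ribosomal proteins, 0.13 and 0.09 for assembly factors, 0.15 and 0.05 for citrate cycle and pyruvate dehydrogenase genes, and 0.11 and 0.05 for cytosolic ribosomal proteins, each the highest of its group. Summed over all 81 genes, the parental tumours held 7669, 7006, 7155 and 8781 CPM and the knockout tumours 7842, 7720, 8054 and 8680 CPM.

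**Figure D4:**
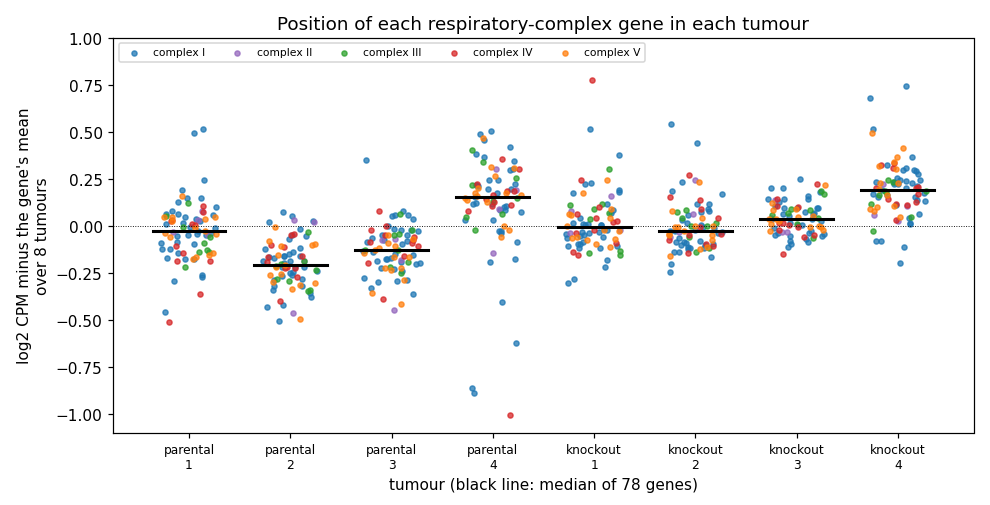
For each tumour (x axis), the log2 CPM of each of the 78 genes minus that gene's mean over 8 tumours (points, coloured by complex), with the median as a black line. The medians of parental tumour 4 (0.15) and knockout tumour 4 (0.19) lie above those of the other 6 tumours, which range from -0.21 to 0.04.

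With parental tumour 4 left out, 18 of the 78 genes rose (23.1%) and 0 fell, while 25.5% of all genes were called in that fit. The added genes include NDUFA1, NDUFA4, NDUFB5, NDUFB6, SDHD, UQCRC1, UQCRFS1, UQCRH, COX6C, COX7A2, COX7B and ATP5PO, and COX6B2 was no longer called. With knockout tumour 1 left out, 4 rose (5.13%), and 21.2% of all genes were called. Without both tumours numbered 4, an alternative chosen after seeing the data, 16 of the 78 rose (20.5%) and 0 fell, while 24.6% of all genes were called. The number of respiratory genes called thus moved by more than 1.5 times with parental tumour 4 and with knockout tumour 1, while every call in these fits was upwards.

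Several other measures moved with parental tumour 4. Its summed leukocyte markers were the lowest of the 8 tumours, 7.53 CPM, as were its summed fibroblast markers, 179 CPM. Parental tumour 2, at the other end of the respiratory genes, had the highest of both, 74.0 and 607 CPM. COL1A1 made up most of the fibroblast sum, 174 CPM in parental tumour 4 and 572 CPM in parental tumour 2. COL1A2 and COL3A1 were also lowest in parental tumour 4. DCN, LUM and PDGFRB, with at most 15 counts in any parental tumour, were instead the highest of the parental group there. Parental tumour 4 also had the highest share of reads assigned to genes, 85.2%, and parental tumour 2 the lowest, 79.1%. Knockout tumour 4 had 13.1 CPM of leukocyte markers, the lowest of its group, and 79.9% of reads assigned, also the lowest of its group. The part of host cells and of read assignment in the tumour-to-tumour pattern was not tested.

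Mitochondrial DNA encodes further subunits of complexes I, III, IV and V, and these transcripts followed another order. The medians over its 13 protein genes were 0.28, -0.33, -0.14 and -0.83 in parental tumours 1 to 4 and 0.36, 0.20, 0.04 and 0.41 in knockout tumours 1 to 4. Parental tumour 4, the highest parental tumour for the nuclear genes, was the lowest of all 8 for 13 of these 13. Knockout tumour 4 was high for both. All 13 had log2 fold changes above 0, with a median of 0.44, but only MT-ND5 was called, at 0.62 (SE 0.20, edgeR adjusted p = 0.0406), and it lost that call in 6 of the 8 fits that left out 1 tumour (adjusted p up to 0.0952 by edgeR). Mitochondrial DNA genes took 4.74% to 9.47% of gene counts in parental and 8.57% to 10.9% in knockout tumours.

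**Figure D5:**
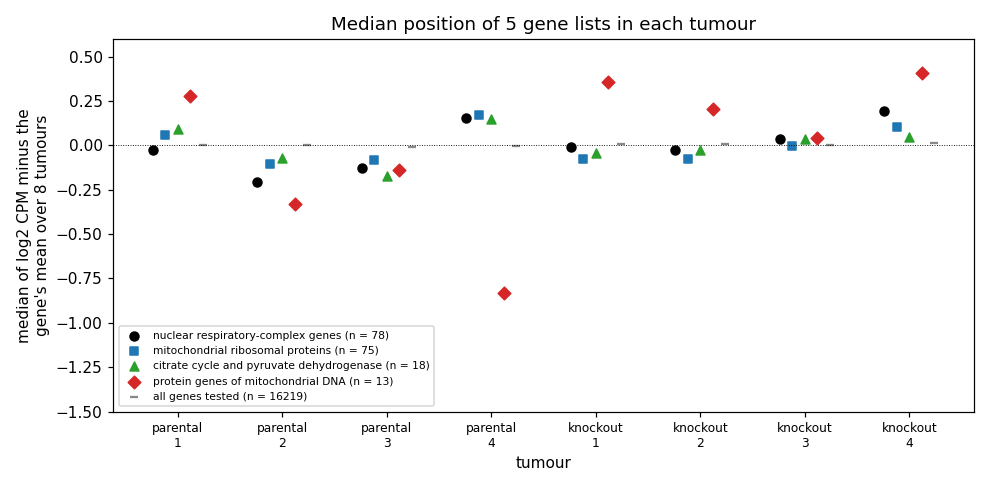
Median, for each tumour (x axis), of the log2 CPM minus the gene's mean over 8 tumours, for the nuclear respiratory genes, mitochondrial ribosomal proteins, citrate cycle genes, mitochondrial DNA genes and all genes tested. In parental tumour 4 the nuclear respiratory genes stand at 0.15 and the mitochondrial DNA genes at -0.83.

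Spread within a group was wider in the parental tumours. Over the 69 genes of at least 15 CPM, the coefficient of variation had a median of 12.6% among parental and 8.04% among knockout tumours, and it was larger among parental tumours for 56 of the 69. These genes are not independent, since parental tumour 4 was the highest of its group for 61 of the 78. Parental tumours also differed more over all genes tested. Pearson correlations of log2 CPM were 0.975 to 0.989 between parental tumours and 0.987 to 0.992 between knockout tumours.

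Other genes of the pathway showed calls in both directions. Of 50 assembly factors for the 5 complexes, 3 rose and 3 fell, with a median of 0.0024. The share called was thus lower than the 27.0% of all genes tested. The risers were COA4, at 0.30 (SE 0.0842, edgeR adjusted p = 0.0207), SCO1 and SURF1, all complex IV assembly factors. SCO1, at 0.23 (SE 0.0781, edgeR adjusted p = 0.0484), and SURF1, at 0.25 (SE 0.0859, edgeR adjusted p = 0.0489), lay just under the threshold. COA4 lost its call in 1 of the 8 fits that left out 1 tumour and in 1 of 9 other settings. The 3 that fell were ACAD9 and NDUFAF6, which act in complex I assembly, and UQCC3, which acts in complex III assembly. ACAD9 had -0.46 (SE 0.0909, edgeR adjusted p = 0.00296) and UQCC3 -0.52 (SE 0.132, edgeR adjusted p = 0.0132). None of the 4 complex II factors and none of the 3 complex V factors was called by edgeR.

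Among subunit-related genes that the symbol rule leaves out, 4 were tested and 2 fell. NDUFA4L2, a paralog of NDUFA4 known as a hypoxia-induced gene, stood at 3.31, 1.32, 1.74 and 1.74 CPM in parental and at 0.794, 0.926, 0.420 and 0.467 CPM in knockout tumours. The groups did not overlap, and the log2 fold change was -1.63 (SE 0.363, with an adjusted p of 0.00646 by edgeR). NDUFA4 itself was not called, at 0.13 (SE 0.137). ATP5IF1, the inhibitor of ATP synthase, had -0.33 (SE 0.109, edgeR adjusted p = 0.0467). The others tested, ATP5MD and ATP5MPL, were not called and had estimates above 0, 0.11 (SE 0.108) and 0.20 (SE 0.120).

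Of 14 regulators of mitochondrial biogenesis, 2 rose and 1 fell (21.4% called, against 27.0% of all genes tested). PPARGC1A stood at 24.3, 20.8, 11.2 and 11.2 CPM in parental and at 56.9, 46.1, 49.0 and 33.3 CPM in knockout tumours. All knockout tumours lay above all parental tumours, and its log2 fold change was 1.46 (SE 0.256, with an adjusted p of 0.00147 by edgeR), larger than that of any of the 78 respiratory genes. Its relative PPARGC1B fell, at -0.53 (SE 0.147, edgeR adjusted p = 0.0198), but lost its call in 3 of the 8 fits that left out 1 tumour (adjusted p up to 0.0644). POLRMT, the mitochondrial RNA polymerase, was the other gene that rose, at 0.27 (SE 0.0880, edgeR adjusted p = 0.0430). NRF1 and GABPA, whose letters were searched in the promoters, were not called, with log2 fold changes of 0.03 (SE 0.104) and -0.04 (SE 0.128). TFAM, which packages mitochondrial DNA, had 0.06 (SE 0.126).

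Of 15 electron carrier genes, 1 rose and 3 fell (26.7% called, against 27.0% of all genes tested). The riser was COQ9, at 0.33 (SE 0.0849, edgeR adjusted p = 0.0130), and COQ8A had -0.42 (SE 0.106, edgeR adjusted p = 0.0122); both act in ubiquinone synthesis. CYCS, cytochrome c, was not called, at 0.09 (SE 0.180). Of 18 citrate cycle and pyruvate dehydrogenase genes, 3 were called (16.7%), and the median log2 fold change of the 18 was -0.0074. IDH2, the NADP-dependent isocitrate dehydrogenase, fell, its estimate being -0.64 (SE 0.0885, with an adjusted p of 0.000288 by edgeR). Of 75 mitochondrial ribosomal protein genes, 2 rose and 2 fell (5.33% called), with MRPL34 at 0.61 and MRPL49 at -0.47. Cytosolic ribosomal protein genes likewise had 2 of 77 higher and 2 lower (5.19% called), with RPS25 at 0.31 and RPL28 at -0.25. RPL28 lost its call in 4 of the 8 fits that left out 1 tumour and in 3 of 9 other settings, and RPS25 in 1 of those 9.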

How the data were processed

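The authors deposited raw read counts per gene symbol, 1 file per tumour; the submitters' processing notes name TopHat2 2.1.1, HTSeq 0.11.0 and hg38. Counting mode, strandedness, annotation and any separation of host reads are not given in the sources used here. The 5 summary lines were left out. Genes passing filterByExpr (minimum count 10, minimum total 15) were tested in edgeR 4.0.16 (R 4.3.3) with TMM scaling and the quasi-likelihood F-test, without covariates, with Benjamini-Hochberg adjustment; SEs were derived from the F statistic. The test was checked on simulated counts. Groups come from the genotype labels. Gene models come from GENCODE 29, which is not stated to be the authors' annotation. Genes named are SMARCA4, all called members, the largest and smallest estimate and highest level per complex, SDHA to SDHD, complex I core, paired isoforms, c-subunit genes, members under the filter, and, in each other list, the called gene with the smallest p in each direction plus PPARGC1A, NRF1, GABPA, TFAM, CYCS and NDUFA4L2. A few results on single genes are not reported here. Further genes named were chosen after their values were seen. The members and lists were chosen with earlier results of these data known. Alternatives used DESeq2 1.42.0, limma 3.58.1 (voom), other scalings and filters, a replicate block, and fits without each tumour.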

Additional observations from a re-analysis of the deposited data

Results flagged for a closer look

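Among 106 sets of 4 tumours (53 named genes in each group), 8 (7.55%) held a tumour far from the other 3, and none of 14 sets of list medians (7 gene lists in each group) did, by Dixon's test at its 95% level; chance flags about 5%. In 5 of the 8 the tumour was knockout tumour 4. NDUFB1 stood at 53.1 CPM there, against 41.6 to 42.4 CPM in the other knockout tumours. COX7A2 stood at 87.1 CPM, against 80.6 to 81.1 CPM, ATP5MC1 at 117 CPM, against 79.2 to 84.3 CPM, and the assembly factor COA4 at 64.5 CPM, against 55.1 to 56.5 CPM. NDUFS1, a core subunit of complex I, was low there, at 129 CPM against 145 to 146 CPM. COX6B2 stood at 6.96 CPM in knockout tumour 1, against 4.71 to 5.09 CPM in the other knockout tumours. Parental tumour 3 was low for NDUFS8, at 60.9 CPM against 67.6 to 68.9 CPM, and for the ribosomal protein gene MRPL49, at 47.2 CPM against 51.5 to 52.3 CPM.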

How the results depend on the processing

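Every setting called 0 respiratory genes lower. The number called higher, 7 as reported, was 8 with DESeq2, 7 with limma-voom, 7 with RLE scaling, 9 with upper-quartile scaling, 7 with no scaling factors, 7 without mitochondrial DNA genes in the library sizes, 6 without a filter and 8 with a minimum count of 50. Leaving out 1 tumour gave 4 to 18 in all, 2 to 7 for complex I, 0 to 1 for complex II, 0 to 4 for complex III and 0 to 3 for complex IV; without the tumours numbered 4, chosen after seeing the data, the numbers were 16 in all and 7, 3 and 3 for complexes I, III and IV. Upper-quartile scaling gave 5 for complex I, and no filter 0 for complex III, where UQCRB had an adjusted p of 0.0532. Estimates near 0 changed sign: COX5A was -0.00381 with DESeq2, -0.00379 with RLE, -0.014 without scaling factors, -0.0057 without mitochondrial DNA genes and -0.020 without a filter; ATP5MC3 was 0.0049 with voom and 0.019 with upper-quartile scaling, which put COX6A1 at 0.017. Without the tumours numbered 4, SDHB was 0.031, ATP5PB 0.014, ATP5MC3 0.11 and GABPA 0.037. Over the fits without 1 tumour the ranges were COX5A -0.056 to 0.081, ATP5MC3 -0.12 to 0.16, COX6A1 -0.10 to 0.033, SDHB -0.11 to 0.0499, ATP5PB -0.12 to 0.044, NDUFS5 -0.19 to 0.024, NDUFS7 -0.015 to 0.10, NRF1 -0.016 to 0.10, GABPA -0.10 to 0.037, TFAM -0.047 to 0.15 and CYCS -0.053 to 0.26. The cause was not tested.

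For tumours numbered 1 to 4, the correlations of same-numbered deviations from the group means were -0.04, -0.02, -0.19 and 0.09 over 16219 genes, and -0.29, 0.03, -0.47 and -0.06 over the 78 respiratory genes. The latter do not register a shift common to all 78, such as that of both tumours 4. These correlations therefore cannot decide whether same-numbered tumours belong together. The reported fit treated the tumours as unpaired. With the replicate number as a block, 9 respiratory genes were called, all higher, 2 of them in complex IV, ATP5MC3 was 0.0050, and 3871 genes were called in all, against 4385.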
